A study of Mus musculus with 6 samples.

Results

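Irf1, Irf2, Irf8, Gbp7, Irgm1 and Irgm2 are 3 interferon regulatory factors and 3 GTPases that cells make in response to interferon-gamma. They were taken by gene symbol from a deposited table of mouse tumor organoids, and all 6 were found among its 20756 genes. The organoids, of strain C57BL/6 and labelled small intestine, were grown from an intestinal tumor's metastasis in the liver. One population carried the scrambled guide sgScr (genotype spelled sgScbr, described as WT) and the other carried sgPrkci (described as PKClambdaKO), a guide against Prkci, which encodes an atypical protein kinase C. Each had 3 libraries that the series calls biological replicates, with no treatment and harvest 72 h after plating. The number of edited clones and the way the cultures differed are unstated in the labels, so p-values measure the spread between these libraries. The guide and any other difference between both populations cannot be told apart. The series title names an interferon response, and these genes are read here for that question.

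Depth ran from 2141125 to 3048170 reads of 3' tags per library, so that 1 read was worth 0.328 to 0.467 CPM (reads scaled by the library total). All 16 intestinal and epithelial markers were listed and 14 were tested, of which 5 rose and 4 fell. Of all genes tested in the same way, 11.4% were called higher and 20.5% lower. The markers that rose were Elf3, Epcam, Vil1, Lgr5 and Krt20, and those that fell were Cdx2, Phgr1, Krt18 and Cldn7. Epcam averaged 551 ± 14.7 against 771 ± 63.9 CPM (sgScr against sgPrkci here and below, SD, n = 3). Cdx2 averaged 25.8 ± 1.97 against 12.5 ± 2.43 CPM (limma adjusted p = 8.9e-05). Prkci mRNA averaged 54.9 ± 8.60 against 52.4 ± 4.99 CPM (log2 fold change -0.06, limma adjusted p = 0.77). Tags at the 3' end need not cover the edit, so this level checks neither the edit nor the labels. In bulk RNA, fewer cells of a kind and less RNA per cell cannot be told apart.

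Interferon-gamma binds a receptor on the cell surface, and its kinases activate a transcription factor that binds a DNA element called GAS. Among the first genes it raises is Irf1. IRF proteins bind a neighbouring kind of element, ISRE, which is built of GAAA repeats. IRF1 activates at such elements, IRF2 competes with it there and also activates some genes itself, and IRF8 is best known from myeloid cells and B cells. Downstream are GTPases of innate defence inside the cell. Guanylate-binding proteins such as Gbp7 attack the vacuoles of pathogens, while Irgm1 and Irgm2 sit on the cell's own membranes and hold other immunity-related GTPases inactive there. In gut epithelium this response is known for defence against intracellular parasites and bacteria.

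The 6 genes did not move as a unit in sgPrkci organoids. Irf8 and Gbp7 rose, Irgm1 fell, Irf1 and Irf2 did not pass the test, and Irgm2 had too few reads to be tested. Genes that reached 1 CPM in 3 or more of the 6 libraries were tested with limma on log2(CPM + 1), and fold changes below are sgPrkci minus sgScr on that scale, which understates changes of low genes. Of 12195 genes tested, 11.4% were called higher and 20.5% lower at an adjusted p under 0.05. The 5 tested members had 2 higher and 1 lower, so the number of calls is read against a background in which 31.8% of all genes were called. This split moved with the scaling: 35.7% of all calls were higher with CPM as deposited, against 51.4% after TMM scaling. For 3 of the 5 tested members the groups did not overlap, where 43.0% of tested genes showed the same, 15.9% with sgPrkci higher and 27.1% with it lower.

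**Figure D1:**
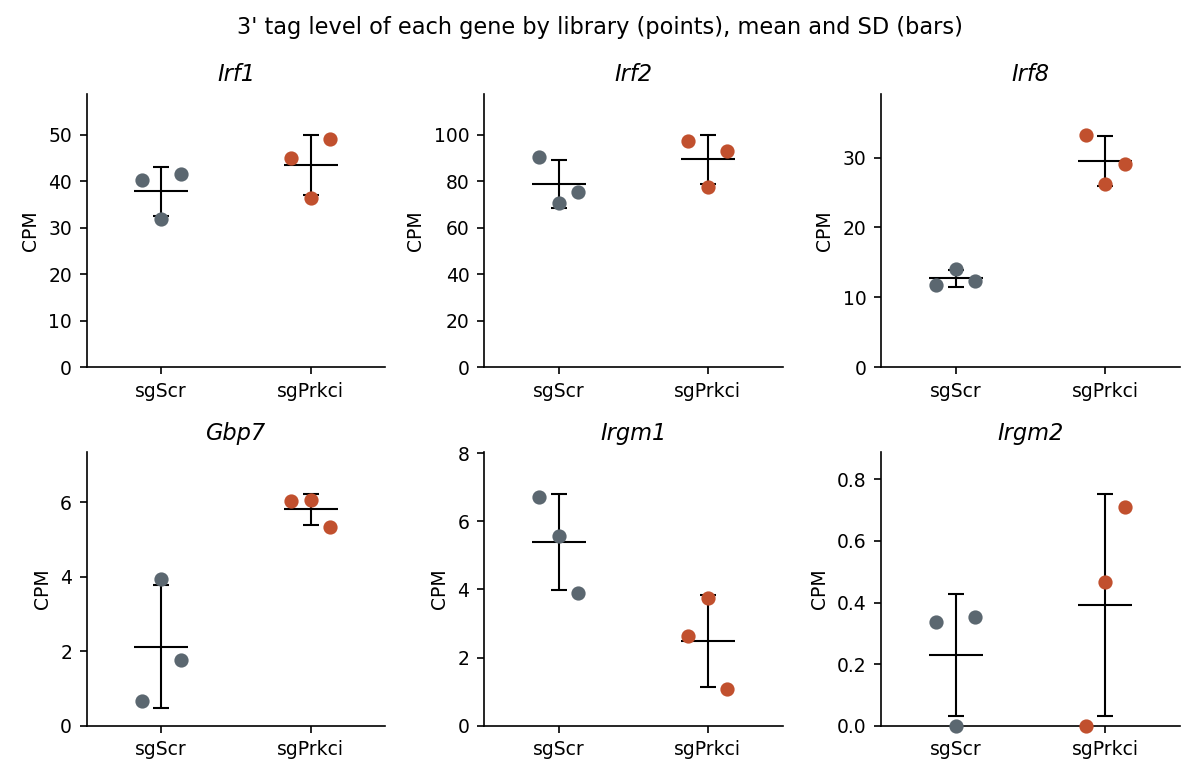
CPM of each of the 6 genes in every library, with sgScr in grey and sgPrkci in orange and with the mean and SD as bars. Each panel has its own axis from 0. The groups lie apart for Irf8, Gbp7 and Irgm1 and overlap for Irf1, Irf2 and Irgm2.

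Irf8 (ENSMUSG00000041515, chromosome 8, 120736358 to 120756694, GRCm38, plus strand) encodes a factor of myeloid and B-cell development. Its level was 11.7, 14.1 and 12.4 CPM in the sgScr libraries and 33.2, 26.2 and 29.1 CPM in the sgPrkci libraries. The lowest sgPrkci library lay well above the highest sgScr library. Irf8 rose from a mean of 12.7 ± 1.22 CPM to 29.5 ± 3.53 CPM (log2 fold change 1.15, SE 0.17, 95% interval 0.79 to 1.5, limma adjusted p = 6.95e-06). The groups held 113 and 226 reads, which is a ratio of 2.33 after depth, with an exact 95% interval of 1.85 to 2.94 for counting error only. It passed in all 18 alternative settings, with log2 fold changes of 0.96 to 1.43.

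The Irf8 promoter is shown because it holds 2 GAS matches close to each other. It is the stretch of 250 bases before the RefSeq start (chr8:120736108-120736357, GRCm38.p6, plus strand), with the GAS letters TTCNNNGAA in capitals.
Irf8: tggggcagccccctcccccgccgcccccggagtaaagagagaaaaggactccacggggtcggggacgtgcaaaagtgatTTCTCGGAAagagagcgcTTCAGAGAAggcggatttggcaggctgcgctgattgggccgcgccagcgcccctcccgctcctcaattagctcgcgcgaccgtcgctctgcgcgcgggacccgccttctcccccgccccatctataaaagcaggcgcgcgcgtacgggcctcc
The first match spans bases 171 to 163 before the start and the second bases 153 to 145. A match is a run of letters and not a measured binding site.

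Irf1 (ENSMUSG00000018899, chromosome 11, 53770014 to 53778374, plus strand) encodes the activator that interferon-gamma induces early. It was at 40.2, 31.8 and 41.5 CPM in sgScr and at 44.9, 36.4 and 49.0 CPM in sgPrkci, so that the groups overlapped. The mean was 37.8 ± 5.25 CPM against 43.4 ± 6.41 CPM (log2 fold change 0.19, 95% interval -0.10 to 0.49, limma adjusted p = 0.33). An exon of Irf1 shares 100 bases with an exon of Gm17334 on the opposite strand, and whether counting used strand is unstated, so reads of the pair cannot be told apart.

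The Irf1 promoter (chr11:53769764-53770013, GRCm38.p6, plus strand) is shown for comparison, since it held a single GAS match, at bases 90 to 82 before the start.
Irf1: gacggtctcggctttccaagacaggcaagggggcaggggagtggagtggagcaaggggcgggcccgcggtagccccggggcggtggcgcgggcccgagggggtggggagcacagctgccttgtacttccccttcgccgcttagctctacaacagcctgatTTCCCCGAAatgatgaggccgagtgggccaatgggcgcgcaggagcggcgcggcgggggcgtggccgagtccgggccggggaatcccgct
The capitals again mark TTCNNNGAA.

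Irf2 (ENSMUSG00000031627, chromosome 8, 46739732 to 46847458, plus strand), whose product competes with IRF1, was at 90.2, 70.5 and 75.5 CPM in sgScr and at 97.3, 77.5 and 93.1 CPM in sgPrkci. These ranges overlapped too. The mean was 78.7 ± 10.2 CPM against 89.3 ± 10.4 CPM (log2 fold change 0.18, 95% interval -0.06 to 0.42, limma adjusted p = 0.25). The log2 ratio of Irf1 to Irf2 within a library does not depend on depth apart from the pseudocount. It was -1.04 ± 0.165 in sgScr and -1.03 ± 0.101 in sgPrkci, a difference of 0.01. The balance of activator and competitor therefore differed by less than the spread between libraries.

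Among the 8 genes of the IRF family considered, the level of Irf4 was not analysed here and Irf5 had 4 reads in sgScr and 6 in sgPrkci. Of the 6 tested, 1 rose, Irf8, and 0 fell in limma, where 11.4% of all tested genes were called higher and 20.5% lower. Of these 6, 0 were lower at an unadjusted p under 0.05, in edgeR or in DESeq2. With chromosome medians removed, 3 rose. The median log2 fold change was 0.06, against -0.11 for all tested genes. Irf3, the factor activated by STING and TBK1, was at 24.1 ± 2.65 and 23.0 ± 3.17 CPM. Irf7, which amplifies type I interferon, was at 2.05 ± 0.639 and 1.51 ± 0.715 CPM, and Irf9, a factor of the type I interferon response, at 11.0 ± 2.63 and 10.1 ± 2.07 CPM.

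Gbp7 (ENSMUSG00000040253, chromosome 3, 142530342 to 142550149, plus strand) encodes a guanylate-binding protein, a large GTPase that gathers on the membranes around pathogens. It was at 0.67, 3.94 and 1.77 CPM in sgScr, from 2, 12 and 5 reads. In sgPrkci it was at 6.03, 6.07 and 5.33 CPM, from 16, 13 and 15 reads. The sgPrkci libraries lay close together and above all sgScr libraries, which themselves spread widely. Gbp7 rose from a mean of 2.13 ± 1.66 CPM to 5.81 ± 0.420 CPM (log2 fold change 1.26, SE 0.33, 95% interval 0.58 to 1.94, limma adjusted p = 0.0042). It passed in all 18 alternatives with log2 fold changes of 0.63 to 1.66, the lowest of them with a pseudocount of 5 CPM. By reads the ratio was 2.69, with an exact 95% counting interval of 1.54 to 4.89. An annotated pseudogene, Gm43802, lies on the same strand and shares 637 bases with an exon of Gbp7, so reads of this gene and of like copies may have been split.

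The Gbp7 promoter (chr3:142530086-142530335, GRCm38.p6, plus strand) is printed because it combined both kinds of element, with 2 GAS matches at bases 106 to 98 and 87 to 79 and an ISRE core (GAAA, any 2 bases, GAAA) on the minus strand at bases 53 to 44.
Gbp7: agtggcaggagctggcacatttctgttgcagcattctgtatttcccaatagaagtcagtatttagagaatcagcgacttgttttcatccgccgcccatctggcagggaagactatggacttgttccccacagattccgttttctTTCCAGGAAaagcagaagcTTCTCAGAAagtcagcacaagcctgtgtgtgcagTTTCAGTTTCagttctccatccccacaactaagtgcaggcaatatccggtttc
Capitals mark all 3 matches.

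Irgm1 (ENSMUSG00000046879, chromosome 11, 48861968 to 48871683, minus strand) encodes a regulatory GTPase of the immunity-related family that protects the cell's own membranes. It was at 6.70, 5.58 and 3.90 CPM in sgScr, from 20, 17 and 11 reads. In sgPrkci it was at 2.64, 3.74 and 1.07 CPM, from 7, 8 and 3 reads. All sgPrkci libraries lay below all sgScr libraries, by a narrow margin between sgPrkci replicate 2 and sgScr replicate 3. Irgm1 fell from a mean of 5.39 ± 1.41 CPM to 2.48 ± 1.34 CPM (log2 fold change -0.93, SE 0.32, 95% interval -1.59 to -0.28, limma adjusted p = 0.026), a ratio of 0.436 by reads with an exact 95% counting interval of 0.239 to 0.764. The call did not hold in 7 of 17 alternatives. It ended without sgScr replicate 1 (adjusted p = 0.0985), without sgScr replicate 2 (adjusted p = 0.0906) and without sgPrkci replicate 3 (-0.60, adjusted p = 0.18). It also ended with quantile scaling (adjusted p = 0.071), plain eBayes moderation (adjusted p = 0.0791), DESeq2 (adjusted p = 0.2) and chromosome medians removed (log2 fold change -0.54, adjusted p = 0.22). The direction was downward in all 17.

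Irgm2 (ENSMUSG00000069874, chromosome 11, 58199618 to 58222782, plus strand), which encodes a second regulatory GTPase of that family, was barely detected. It had 1, 0 and 1 reads in sgScr and 0, 1 and 2 reads in sgPrkci, so that 2 and 3 reads stood in the groups. The ratio of sgPrkci to sgScr by depth was 1.75, with an exact 95% counting interval of 0.2 to 20.9, and no difference was detectable at this depth. Irgm2 shares 162 exon bases with Igtp, the gene of the related GTPase Irgm3, on the same strand. Igtp, with 8 reads in sgScr and 5 in sgPrkci, was tested, with a log2 fold change at -0.21 (adjusted p = 0.73).

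The promoter stretches of these 3 regulatory GTPase genes and of Irf2 are printed at the motifs alone, with GAS and ISRE core letters in capitals, to show how alike Irgm2 and Igtp are there. The sites are chr11:48871433-48871452 on the minus strand for Irgm1, chr11:58214900-58214924 for Irgm2, chr11:58199509-58199533 for Igtp and chr8:46739502-46739531 for Irf2, on the plus strand.
Irgm1: aaGAAATAGAAACCGAAAct
Irgm2: atTTCCAGGAActGAAACTGAAAgc
Igtp: atTTCTAGGAActGAAACTGAAAgc
Irf2: gtGAAAATGAAAttgacttTTCCGAGAAat
Counted from 1 at the 5' end of the printed site, Irgm2 and Igtp differed by C6T, Irgm2 first. In Irgm1 the capitals cover a pair of overlapping ISRE cores, and in Irgm2 and Igtp a GAS match is followed by an ISRE core. The RefSeq start of Irgm2 lies 15359 bases inside the GENCODE gene, whose span begins close to Igtp. That of Irgm1 lies 263 bases inside its own GENCODE gene. The printed Irgm1 and Irgm2 sites thus fall within the annotated gene spans.

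Letters of one of both elements stood in the 250 bases before the first listed start of each of the 6 genes. Irf1 and Irf8 each had a second listed start, whose window held 0 matches. Both motifs were searched on both strands, and the GAS letters read the same on either strand. Over all 32851 promoter windows in the RefSeq table, 7.02% held the GAS letters, 2.98% the ISRE core and 9.66% either. These shares are per window, whereas the counts below take a gene as matching if any of its windows did. Of these 8 IRF genes, all with a window, the 3 with a match were Irf1, Irf2 and Irf8, whereas Irf3, Irf4, Irf5, Irf7 and Irf9 had none. Of 22 interferon-gamma induced GTPase genes, 13 had a window and 12 of these had a match, all but Ifi47. Of 28 interferon-gamma target genes 17 had a window, and 6 of these had a match. Irf8, which rose, Irgm1, which fell, and Irf1, which did not pass, all held such letters. No match says only that these letters are not in this window.

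**Figure D2:**
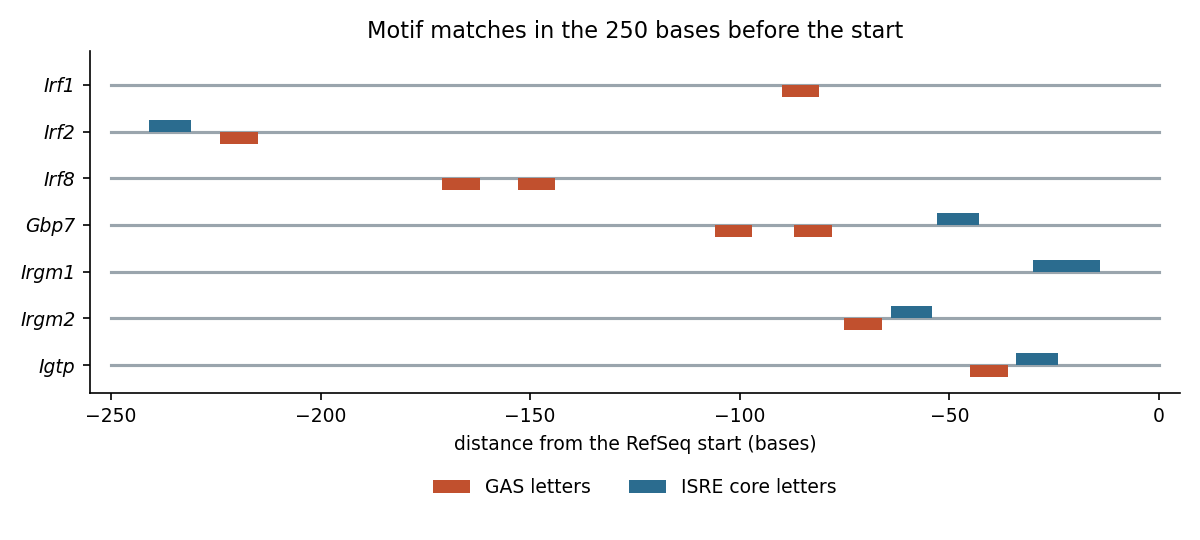
Position of GAS letters (orange) and ISRE core letters (blue) in the 250 bases before the RefSeq start, in bases from the start, for the 6 genes and Igtp. Each gene has at least 1 match, and Irf1, Irf2 and Irf8 carry theirs at different distances from the start.

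Where the genes lie on the chromosomes sets a second frame, because many genes of chromosomes 8 and 11 were lower in sgPrkci. Among tested genes with a mean level of 10 CPM or more, chromosome 11 had a median log2 fold change of -0.40, chromosome 8 of -0.28 and chromosome 3 of -0.04, against -0.08 over all. Irf1, Irgm1 and Irgm2 lie on chromosome 11, Irf2 and Irf8 on chromosome 8 and Gbp7 on chromosome 3. All 10 nearest tested genes of Irf1 had negative log2 fold changes, from -0.96 to -0.35, and 7 of them fell. Over all tested genes, 20.5% were called lower and 11.4% higher. Of the neighbours of Irf1, Irf2, Irf8, Irgm1 and Irgm2, 0 rose in limma, and 0 were higher at an unadjusted p under 0.05, in edgeR or in DESeq2. The nearest on the left, the DNA repair gene Rad50, fell from 266 ± 22.8 to 165 ± 11.5 CPM (log2 fold change -0.69, adjusted p = 7e-07). The nearest on the right, the carnitine transporter gene Slc22a5, was at 2.70 ± 0.505 and 1.48 ± 0.402 CPM (adjusted p = 0.18). Irf1 stood above all 10.

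Irf1 was 0.90 ± 0.257 log2 units above the mean of these 10 genes in sgScr and 1.74 ± 0.209 above it in sgPrkci. By library the offsets were 1.06, 0.60 and 1.03 in sgScr and 1.67, 1.58 and 1.98 in sgPrkci, with no overlap. Here and below, the fall of the neighbours enters these offsets. How many of all tested genes have offsets without overlap was not computed. An exact two-sided permutation test over the 20 ways to split 6 libraries gave p = 0.1, the smallest it can give with 3 against 3. With the median of each chromosome removed, Irf1 passed in limma (log2 fold change 0.59, adjusted p = 0.0019), and so did Irf2 (log2 fold change 0.46, adjusted p = 0.0029). That setting treats the chromosome shift as known, without an error of its own.

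Irf2 lay above all 10 of its neighbours as well, and 6 of them fell. Its nearest on the right, Trappc11, of a vesicle tethering complex, fell by 0.40 on the log2 scale (adjusted p = 0.036), a call that ended in 11 of 18 alternatives. The offset of Irf2 from its neighbours rose from 0.91 ± 0.205 to 1.49 ± 0.150, again without overlap between the groups (exact permutation p = 0.1, the smallest possible).

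Irf8 had neighbours from -1.11 to 0.17, 5 of which fell, and lay above all of them. On its left the respiratory chain gene Cox4i1 fell from 186 ± 8.98 to 143 ± 6.06 CPM (adjusted p = 0.0015), a call that ended with chromosome medians removed (log2 fold change -0.10). On its right Mthfsd was at 12.3 ± 3.84 and 8.02 ± 0.613 CPM (adjusted p = 0.089). Irf8 thus turned from 1.19 ± 0.154 log2 units below its neighbours, an offset of -1.19, to 0.43 ± 0.118 above them, and the library offsets did not overlap. With the chromosome median removed its log2 fold change was 1.43.

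Gbp7 had neighbours on both sides of 0, from -0.73 to 0.65, with 1 higher and 1 lower call, and it exceeded all 10. Its nearest were Pdlim5, which rose from 97.0 ± 4.08 to 119 ± 2.32 CPM (adjusted p = 0.022, a call that ended in 4 of 18 alternatives), and Kyat3, at 4.87 ± 0.810 and 2.52 ± 0.350 CPM (adjusted p = 0.054). Irgm1 lay below all 10 of its neighbours, 6 of which fell, with values from -0.78 to 0.27. The offset of Irgm1 was -2.26 ± 0.423 in sgScr and -2.79 ± 0.501 in sgPrkci, and these overlapped (exact permutation p = 0.3). Its nearest, Trim7 and Zfp62, fell by 0.71 and 0.51 on the log2 scale (adjusted p = 0.02 and adjusted p = 0.0037), and both calls ended with chromosome medians removed. Around Irgm2, 4 of 10 neighbours fell, and its nearest were Igtp and the zinc finger gene Zfp692 (log2 fold change -0.60, adjusted p = 0.059).

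**Figure D3:**
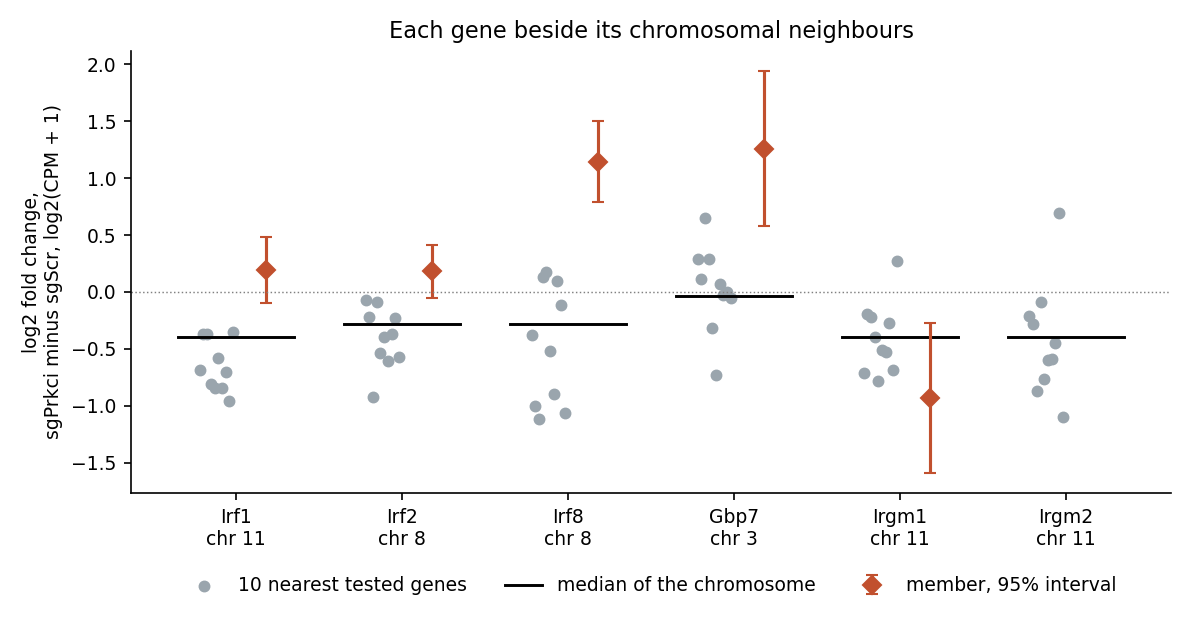
Log2 fold change (sgPrkci minus sgScr, log2(CPM + 1) scale) of each gene with its 95% interval (orange), of its 10 nearest tested genes (grey) and of the chromosome's median (black line). Irf1, Irf2, Irf8 and Gbp7 lie above all their neighbours and Irgm1 below all of its own; Irgm2 was not tested and has no diamond.

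Upstream, of 11 interferon-gamma signalling genes 9 were tested, 1 rose and 0 fell in limma, where 11.4% of all tested genes were called higher and 20.5% lower, while 2 were lower at an unadjusted p under 0.05, and edgeR and DESeq2 called 0 lower. The number that rose was 2 with TMM and 4 with chromosome medians removed. The median log2 fold change was -0.0035. Ifngr2, the signalling chain of the receptor, was at 29.8, 25.3 and 24.8 CPM in sgScr and at 45.3, 40.2 and 44.7 CPM in sgPrkci. The groups lay apart, and it rose by 0.69 on the log2 scale (adjusted p = 0.00039). The kinase gene Jak2 was at 57.4 to 66.7 CPM in sgScr and 68.2 to 75.6 CPM in sgPrkci (adjusted p = 0.29). Ifng itself had 1 read in sgScr and 0 in sgPrkci. Socs1, the feedback inhibitor, had 13 and 6 reads, of which 11 were in sgScr replicate 3.

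Downstream, 28 target genes were considered, of which 10 passed the filter, 1 rose and 2 fell, and 2 of the 10 reached the filter only through their sgPrkci libraries. Over all tested genes, 11.4% were called higher and 20.5% lower. Tapbp, which loads peptides on MHC class I, rose by 0.45 on the log2 scale (adjusted p = 0.011). The tRNA synthetase gene Wars fell by 0.60 (adjusted p = 0.0062) and Psme1, of the proteasome activator, by 0.38 (adjusted p = 0.02). The calls of these 3 ended in 3, 2 and 9 of 18 alternatives. Of the 28 genes, 16 had too few reads to be tested, classical readouts of interferon-gamma among them. B2m, in contrast, averaged 208 ± 30.2 against 222 ± 25.7 CPM (limma adjusted p = 0.48). The class II presentation genes Cd74, H2-Aa and H2-Ab1 had 8, 7 and 6 reads in sgScr and 0 in sgPrkci. Of these reads, 5, 7 and 5 were in sgScr replicate 1. The chemokine genes Cxcl9 and Cxcl10 had 2 and 9 reads in sgScr and 1 and 2 reads in sgPrkci, and the immunoproteasome genes Psmb8 and Psmb9 had 1 and 5 against 2 and 4. Of 22 induced GTPase genes 10 were listed and 3 tested, Gbp7, Irgm1 and Igtp. Reads of the others were few: Gbp2 had 1 and 1, Gbp3 1 and 5, Iigp1 1 and 0, Ifi47 2 and 0, and Gbp8 and Gbp9 had none.

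**Figure D4:**
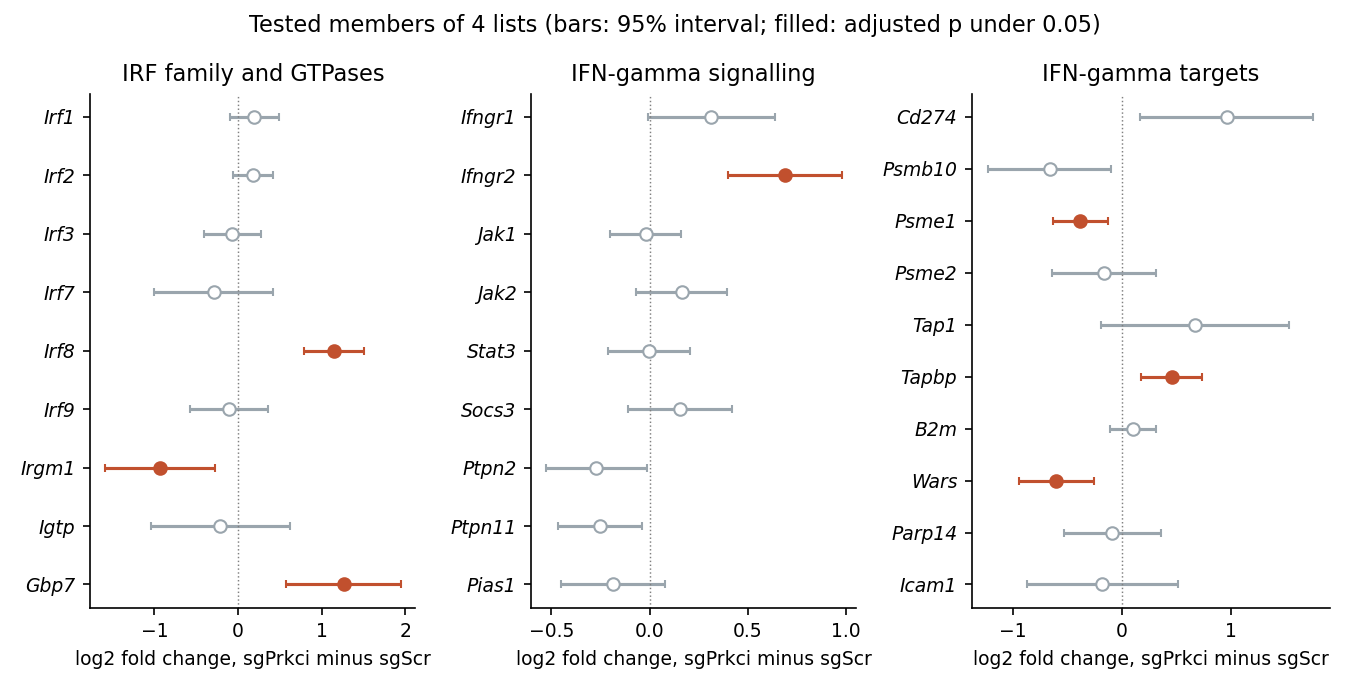
Log2 fold change (sgPrkci minus sgScr) with 95% interval for the tested genes of the IRF family with the GTPases, of interferon-gamma signalling and of its targets. Filled orange points passed at an adjusted p under 0.05: Irf8, Gbp7, Ifngr2 and Tapbp above 0, and Irgm1, Psme1 and Wars below.

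Genes described as IRF1 or IRF2 targets also went both ways. Of 16 such genes 8 were tested, 2 rose and 1 fell, where 11.4% of all tested genes were called higher and 20.5% lower. Of these 8, 3 reached the filter only through their sgPrkci libraries, so no median is given. Pdcd1lg2, an immune checkpoint ligand gene, was at 13.4, 12.1 and 14.9 CPM in sgScr and at 43.8, 32.2 and 44.7 CPM in sgPrkci (log2 fold change 1.5, adjusted p = 5.12e-08). The cell cycle inhibitor gene Cdkn1a rose by 0.68 (adjusted p = 5.02e-07). Gsdmd, the pore-forming gene of pyroptosis and a target of IRF2, was at 14.8, 6.56 and 8.15 CPM in sgScr and at 6.03, 1.87 and 4.62 CPM in sgPrkci. It fell by 1.09 (adjusted p = 0.0093), without overlap. That call ended with chromosome medians removed, plain eBayes, DESeq2, and without sgScr replicate 1 (log2 fold change -0.78, adjusted p = 0.069) or sgPrkci replicate 2 (-0.71, adjusted p = 0.069), and the list then had 0 that fell.

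Of 16 partners and myeloid targets of IRF8, 8 were tested, 4 rose and 2 fell. With plain eBayes 2 rose, and with DESeq2 1 fell. Their median log2 fold change was 0.24, against -0.11 for all tested genes, of which 11.4% were called higher and 20.5% lower. Bcl6, a repressor that IRF8 regulates in B cells, rose from 32.1 ± 5.84 to 68.2 ± 2.10 CPM (adjusted p = 3.02e-07). Its partner gene Etv6 rose by 0.57 and Klf4, a target in monocytes and a factor of gut epithelium, by 0.31 (adjusted p = 0.0023 and adjusted p = 0.0041), and both calls ended with plain eBayes. Cd68 rose by 0.69 (adjusted p = 0.029), a call that ended with DESeq2 and without sgScr replicate 2, sgScr replicate 3, sgPrkci replicate 1 or sgPrkci replicate 3 (log2 fold changes of 0.60 to 0.63). The protease gene Ctsc fell from 67.1 ± 8.96 to 18.8 ± 1.89 CPM (adjusted p = 6.9e-11), and the lysosomal amidase gene Naaa fell by 0.94 (adjusted p = 0.0052). Spi1, the gene of the PU.1 partner that IRF8 needs in myeloid cells, had 1 read in sgScr and 0 in sgPrkci, and Ikzf1 had 0 and 1.

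Markers of blood cells were read beside Irf8. Of 22 macrophage, monocyte and dendritic markers 12 were listed, and their summed level was 16.4 to 16.7 CPM in sgScr and 77.1 to 87.5 CPM in sgPrkci. Mrc1, the mannose receptor gene, alone averaged 1.12 ± 0.476 against 66.0 ± 7.36 CPM. Of the 4 tested, Mrc1 and Cd68 rose, and Cx3cr1 fell (log2 fold change -1.01, adjusted p = 0.034), a call that ended in 6 of 17 alternatives. Over all tested genes, 11.4% were called higher and 20.5% lower. Cd14 did not pass, at 5.88 ± 1.32 against 6.34 ± 2.08 CPM (limma adjusted p = 0.86). The other 8 listed had too few reads to be tested. Among them, the pan-leukocyte gene Ptprc had 2 and 6 reads, Fcer1g 0 and 1, and Lyz2 1 and 0. Aif1 and C1qa each had 3 and 0. Of 17 lymphocyte markers 5 were listed, summing to 5.32 to 5.70 CPM in sgScr and 4.62 to 7.54 CPM in sgPrkci. Neutrophil markers, nearly all Ly6g, summed to 58.1 to 80.5 and 35.9 to 40.2 CPM. Ly6g fell (log2 fold change -0.88, limma adjusted p = 5.5e-06). The others listed were barely read: S100a8 had 3 and 0 reads, S100a9 2 and 2, Cxcr2 0 and 2, and Mpo 0 and 1. Hepatocyte markers summed to 2.30 to 22.5 and 1.07 to 1.87 CPM. Most of the hepatocyte sum in sgScr was Apoa1, at 16.1, 1.64 and 5.67 CPM. Apoa1 was the only hepatocyte marker tested, and it fell (log2 fold change -2.05, limma adjusted p = 0.012). Alb had 1 read in sgScr and 0 in sgPrkci, and Ttr and Cyp3a11 had none. Fibroblast and endothelial markers summed to at most 2.80 CPM in any library. The part of such cells in the Irf8 level was not tested.

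Genes that disarm vacuoles together with these GTPases, chiefly the conjugation machinery of autophagy, had 16 of 17 tested, 4 that rose and 2 that fell. Of all tested genes, 11.4% were called higher and 20.5% lower. Aim2, a DNA sensor gene that acts after guanylate-binding proteins open bacteria, was at 74.8, 59.4 and 61.0 CPM in sgScr and at 121, 113 and 118 CPM in sgPrkci, and rose by 0.85 (adjusted p = 4.71e-07). Tax1bp1, Atg12 and Map1lc3a rose by 0.29, 0.37 and 0.47 on the log2 scale (adjusted p of 0.008, 0.009 and 0.021). Without sgScr replicate 3 these last 3 did not pass (adjusted p of 0.067, 0.063 and 0.073), which left 1 gene that rose. The autophagy receptor gene Sqstm1 fell by 0.61 (adjusted p = 2.18e-06) and Atg5 by 0.38 (adjusted p = 0.025). The call of Sqstm1 ended with chromosome medians removed (log2 fold change -0.21, adjusted p = 0.062), and that of Atg5 in 10 of 18 alternatives.

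Among tested genes with a mean level of 10 CPM or more, the profiles most like that of Irf8 over the 6 libraries were those of Dcun1d4 (Pearson's r = 0.999), Ndrg1 (0.994) and Tmprss3 (0.994). For Irf8, 291 of 7987 genes had an r above 0.95, against 15 for Irf1 and 10 for Irf2. Tnip2, Fgd6 and Icmt were most like Irf1 (0.985, 0.978 and 0.977), and Zfp263, Zbtb21 and Ift43 most like Irf2 (0.992, 0.977 and 0.976). Sept7, Mst1 and Unc50 were most like Gbp7 (0.988, 0.986 and 0.983), and Lrpprc, Tmx2 and Tiam1 most like Irgm1 (0.99, 0.989 and 0.988). These correlations describe points that share libraries and depth. A gene's difference between the groups, large for Irf8, enters r as well, and no test is given.

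**Figure D5:**
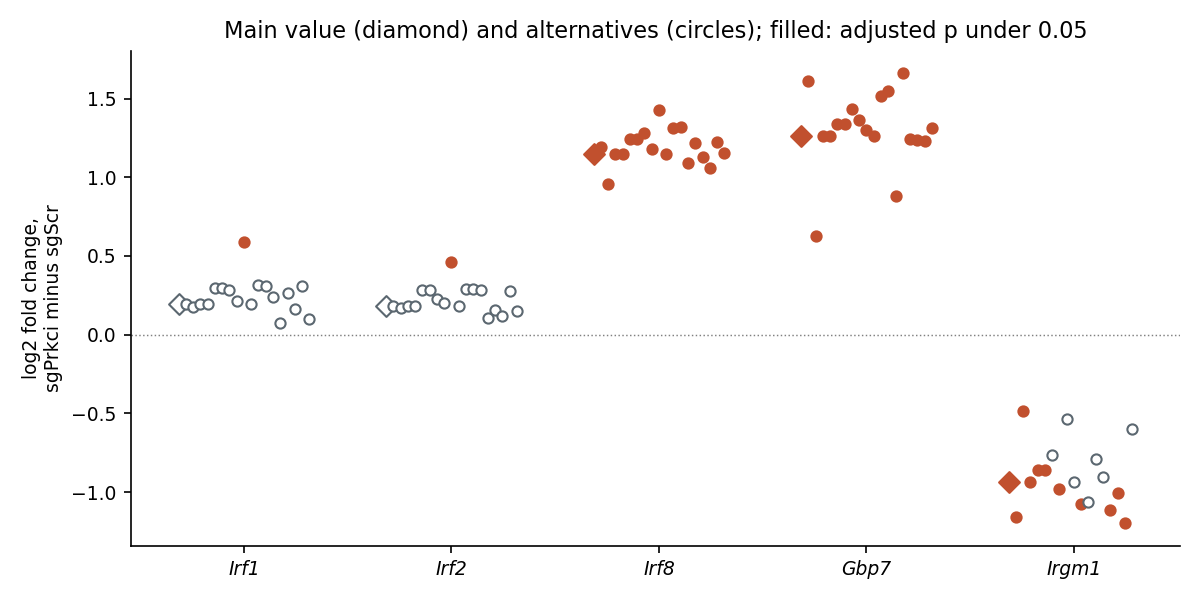
Log2 fold change of the 5 tested genes in the main setting (diamond) and in each alternative (circles), with filled symbols where the adjusted p was under 0.05. Irf8 and Gbp7 passed in every alternative shown, Irf1 and Irf2 in 1 each (chromosome medians removed), and Irgm1 in 10 of 17.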

How the data were processed

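Libraries of 3' tags (QuantSeq FWD kit, 200 ng RNA, optional molecular identifiers) were read single-end over 75 bases, per the labels' protocols. The genome build named in the submitters' processing notes is GRCm38; aligner, counter, strand setting and use of identifiers: not given in the sources used here. As deposited by the authors, the values are CPM for 20756 genes. All 124536 values (100%) were whole multiples of 1 read (tolerance 1e-06), so reads could be recovered. Libraries within a group differed beyond sampling noise (chi-square per degree of freedom 1.63 to 3.18).

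Names and positions came from GENCODE M21 by identifier (81 genes had no entry), and promoters from RefSeq. The main test used limma 3.58.1 (R 4.3.3) on log2(CPM + 1), trended and robust, two-sided, with Benjamini-Hochberg adjustment over 12195 genes that reached 1 CPM in 3 or more libraries. Fits were tested on simulated data. On recovered reads, edgeR 4.0.16 (quasi-likelihood) called 1943 genes higher and 1798 lower, and DESeq2 1.42.0 called 1422 and 1118. The other alternatives changed the pseudocount (0.25 or 5 CPM), the filter (none or 5 CPM), the scaling (TMM, median-of-ratios, quantile, totals without Gm42418 and mitochondrial genes, chromosome medians removed) or the moderation (plain eBayes), or left out a library.

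The genes and lists were chosen with earlier results of these data known. Named were the 6 genes, Prkci, up to 4 called genes per list and direction with the lowest p, the nearest tested neighbour on each side and the 3 genes most like each member. Igtp, Jak2, Mrc1, Cx3cr1, Cd14, Epcam and the other epithelial markers, Ly6g, Apoa1 and B2m were named after their values were seen. So were the low-read genes and the IRF genes that did not pass. Some genes that this rule or the lists would name are not reported here. Intervals on reads cover counting error only.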

Additional observations from a re-analysis of the deposited data

How the results depend on the processing

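Irf8 and Gbp7 kept their direction and call under all 18 alternatives, with leave-one-out log2 fold changes of 1.06 to 1.23 and 0.88 to 1.66. With chromosome medians removed, Irf1 (0.59) and Irf2 (0.46) passed, which made 4 members higher; leave-one-out values were 0.08 to 0.31 and 0.11 to 0.28. Irgm1 did not pass with quantile scaling (-0.77), chromosome medians removed (-0.54), plain eBayes (-0.93) or DESeq2 (-1.06), and ranged from -1.20 to -0.60 without single libraries. A filter at 5 CPM left it untested, and in these 5 settings 0 members and 0 listed GTPases were lower, against 0 to 1 without single libraries. The cause was not tested.

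The count of signalling genes that were higher was 2 with TMM, median-of-ratios, quantile and edgeR and 4 with chromosome medians removed (1 without any single library, and 0 to 1 lower). Target genes that were higher numbered 2 with no filter and with TMM, median-of-ratios and quantile and 0 with plain eBayes (0 to 3 without single libraries), and 1 was lower with TMM, median-of-ratios, chromosome medians removed and edgeR, and 0 with DESeq2 (1 to 2). IRF1 or IRF2 targets had 0 lower with chromosome medians removed, plain eBayes and DESeq2 (0 to 1, and 2 to 4 higher). IRF family members that were higher numbered 3 with chromosome medians removed. The IRF8 list had 2 higher with plain eBayes and 1 lower with DESeq2. Effectors had 7 higher with chromosome medians removed and 2 with plain eBayes (1 to 4), and 1 lower with TMM, median-of-ratios, quantile, plain eBayes, edgeR and DESeq2 and 0 with chromosome medians removed (1 to 2).

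Signs turned only for genes that did not pass. Prkci was at 0.042 with TMM, 0.043 with median-of-ratios, 0.0058 with quantile, 0.032 with edgeR and 0.034 with DESeq2 (-0.17 to 0.053 without single libraries). Irf3 was at 0.030, 0.031, 0.063, 0.0087, 0.049 and 0.045 with TMM, median-of-ratios, quantile, chromosome medians removed, edgeR and DESeq2 (-0.16 to 0.036). Igtp was at 0.18 with chromosome medians removed (-0.46 to 0.13) and Irf9 at 0.055 with quantile (-0.27 to 0.051). Depth limits Irgm2 and 6 other GTPase genes, which had too few reads or none, and 16 target genes. No paired analysis was possible because the labels number no replicates; the numbers used here follow the order of deposit and pair nothing.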
